A study of Mus musculus with 6 samples.

Results

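Macrophages of the omentum and of the mesenteric adipose tissue were compared for the transcripts of 10 genes that make prostaglandins and leukotrienes. They were the cyclooxygenases Ptgs1 and Ptgs2, the prostaglandin synthases Ptges and Hpgds, the 5-lipoxygenase pair Alox5 and Alox5ap, the leukotriene enzymes Lta4h and Ltc4s, and the lipoxygenases Alox12 and Alox15. The genes were taken by symbol as steps of 1 pathway, and all 10 had a row among the 23946 genes of the deposited table.

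Eicosanoids are short-lived lipid signals made from arachidonic acid that phospholipases release from membranes. Cyclooxygenases turn it into prostaglandin H2, from which dedicated synthases make the separate prostanoids. The 5-lipoxygenase, with the membrane helper protein FLAP, makes leukotriene A4, which Lta4h hydrolyses to the neutrophil attractant leukotriene B4 and Ltc4s joins to glutathione to give the cysteinyl leukotrienes. The 12/15-lipoxygenase makes hydroxy fatty acids and precursors of lipoxins, and in the mouse it is a known product of resident peritoneal macrophages and eosinophils. Tissue macrophages are a classical source of these lipids.

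CD45+CD11b+F4/80+ cells were sorted by flow cytometry from dissociated omentum (OM) and mesentery (MY) of C57BL/6 mice, which the methods describe as female and 6 to 8 weeks old, and their RNA was sequenced. The mice were either naive (0 h) or had been injected into the peritoneum with ID8 cells, a mouse ovarian cancer line, 24 h or 7 d before. The design describes 9 mice handled in groups of 3, and the 6 libraries were OM 0h, OM 24h, OM 7d, MY 0h, MY 24h and MY 7d. Whether the omental and mesenteric libraries of a time came from the same mice is not given in the sources used here. The paper's reporting summary gives an n of 3 for the RNA sequencing, with 3 omenta per tube. The deposited data hold 1 library of pooled animals for each condition. None of the 6 had an injection without tumour cells, so effects of the injection and of the ID8 cells cannot be told apart.

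Expression was given as fragments per kilobase of transcript per 1000000 aligned reads (FPKM), which scales for gene length and so allows levels of different genes to be set side by side. Because the deposited data held no replicate libraries, no test was made and every difference describes a pair of libraries. Where 3 values are given for a tissue, they are in the order 0 h, 24 h and 7 d. Differences were taken on the log2(FPKM + 1) scale, which understates changes of low genes, and a gene was counted as higher or lower when it differed at least 2-fold, that is by 1 on this scale. Genes that reached an FPKM of 1 in any library were taken as expressed, which held for 13064 genes and for 9 of the 10 members. Read numbers behind a value were not in the table. FPKM sums lay between 526887 and 713863, and the spacing of low values gave a rough depth of 0.853 to 1.48 times that of MY 0h. In such bulk libraries, fewer cells of a type and less RNA per cell cannot be told apart.

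The sorted cells carried the markers of the gate, but not those alone. All 8 macrophage markers were above an FPKM of 1 in every library. Their mean on the log2(FPKM + 1) scale was 6.44, 8.01 and 6.22 in the omental libraries, and 5.82, 6.60 and 6.04 in the mesenteric libraries. Neutrophil markers summed to between 7297 and 19312 FPKM in the omental libraries and between 235 and 860 in the mesenteric ones. Mesothelial markers summed to between 69.8 and 782 FPKM in the omental libraries and to no more than 0.567 in the mesenteric ones. The 7 genes known to be induced by tissue dissociation, such as Fos and Egr1, had a mean of 7.85 to 8.45 on the log2 scale in omental and 4.15 to 4.19 in mesenteric libraries. All 7 were at least 2-fold higher in the omental library at each time. Markers of B cells, T cells and NK cells were also above 0 in all libraries. T cell markers summed to 74.1, 19.2 and 66.8 FPKM in the omental libraries and to 543, 298 and 664 in the mesenteric ones. NK cell markers summed to 193, 5.50 and 82.1 FPKM in the omental libraries and to 1387, 840 and 562 in the mesenteric ones. For B cell markers the sums were 2659, 604 and 1645 against 526, 324 and 971. The neutrophil, mesothelial, fibroblast, B cell and dissociation lists had a higher mean in the omental library at every time, beside every member higher there. So did the macrophage, large peritoneal macrophage and platelet lists. The T cell and NK cell lists had a lower mean in the omental library at every time. The part of these differences in the results was not tested.

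Promoter sequence of the cyclooxygenases and of Hpgds is printed because these 3 genes had contrasting patterns: Ptgs2 was below 1 FPKM in the mesenteric libraries, Ptgs1 was higher in the omentum at all times, and Hpgds was lower in the omentum at 0 h and 7 d. The sequences come from RefSeq on GRCm38.p6, run from 220 bases before to 30 bases after the annotated start, and read 5′ to 3′ on the strand of the gene. Capitals mark the motif matches named after the sequences. The windows lie at chr1:150099811-150100060 on the plus strand for Ptgs2, at chr2:36230206-36230455 on the plus strand for Ptgs1 and at chr6:65144701-65144950 on the minus strand for Hpgds.
Ptgs2: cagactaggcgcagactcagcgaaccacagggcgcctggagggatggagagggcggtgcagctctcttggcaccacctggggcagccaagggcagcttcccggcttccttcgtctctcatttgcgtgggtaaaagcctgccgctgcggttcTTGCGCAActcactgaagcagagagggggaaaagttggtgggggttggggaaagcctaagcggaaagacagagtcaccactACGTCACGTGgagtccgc
Ptgs1: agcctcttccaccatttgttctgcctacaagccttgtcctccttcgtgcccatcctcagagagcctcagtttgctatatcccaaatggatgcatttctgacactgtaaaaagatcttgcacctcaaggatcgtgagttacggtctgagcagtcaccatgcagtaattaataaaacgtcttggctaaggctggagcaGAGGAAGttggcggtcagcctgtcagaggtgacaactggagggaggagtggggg
Hpgds: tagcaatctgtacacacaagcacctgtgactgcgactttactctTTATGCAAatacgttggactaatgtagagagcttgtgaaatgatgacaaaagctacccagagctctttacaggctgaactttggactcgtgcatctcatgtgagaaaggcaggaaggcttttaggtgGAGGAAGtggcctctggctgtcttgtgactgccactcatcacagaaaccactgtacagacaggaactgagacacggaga

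The Ptgs2 window held a C/EBP match (TTNNGCAA) at positions -69 to -62 from the start, which reads on both strands, and an ACGTCA core of the cAMP response element at 13 to 18 that overlaps an E-box (CACGTG) at 17 to 22. The Ptgs1 window held the letters GAGGAAG, a core of the PU.1 class of ETS motifs, at -24 to -18. Hpgds held GAGGAAG at -49 to -43 and a C/EBP match at -176 to -169. Both strands were searched for 8 motifs in the windows of the 8 members that the promoter table lists. Among 32851 promoter windows of the same length, 6.90% held ACGTCA, 6.37% CACGTG, 9.10% TTNNGCAA and 11.1% GAGGAAG. The AP-1 letters TGANTCA were in 6.68% of these windows. The GATA letters AGATAA were in 9.52% of them. A TATA box, searched as TATAAA, was in 11.7% of them, and the spaced palindrome of STAT6 in 5.73%. The STAT6 motif was found in Ptges at -197 to -188 and GAGGAAG in Ltc4s at 16 to 22 on the reverse strand. None of the 8 was found in the windows of Alox5, Lta4h or Alox12. Windows of Alox5ap and Alox15 were not analysed here.

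Across the members, the omental libraries stood above the mesenteric ones in 5 genes. The lowest omental FPKM exceeded the highest mesenteric FPKM for Ptgs1, Ptgs2, Ptges, Alox5 and Alox5ap, the reverse held for 0 members, and the values of Hpgds, Lta4h, Ltc4s, Alox12 and Alox15 overlapped. Of all expressed genes, 16.7% had every omental library above every mesenteric one and 17.7% had every one below. The gap between the lowest omental and highest mesenteric library was 34.3-fold for Ptgs2, 2.004-fold for Ptgs1, 1.67-fold for Ptges, 1.56-fold for Alox5 and 1.51-fold for Alox5ap. The plot of member levels shows both the wide gap of Ptgs2 and the overlap of Lta4h.

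**Figure D1:**
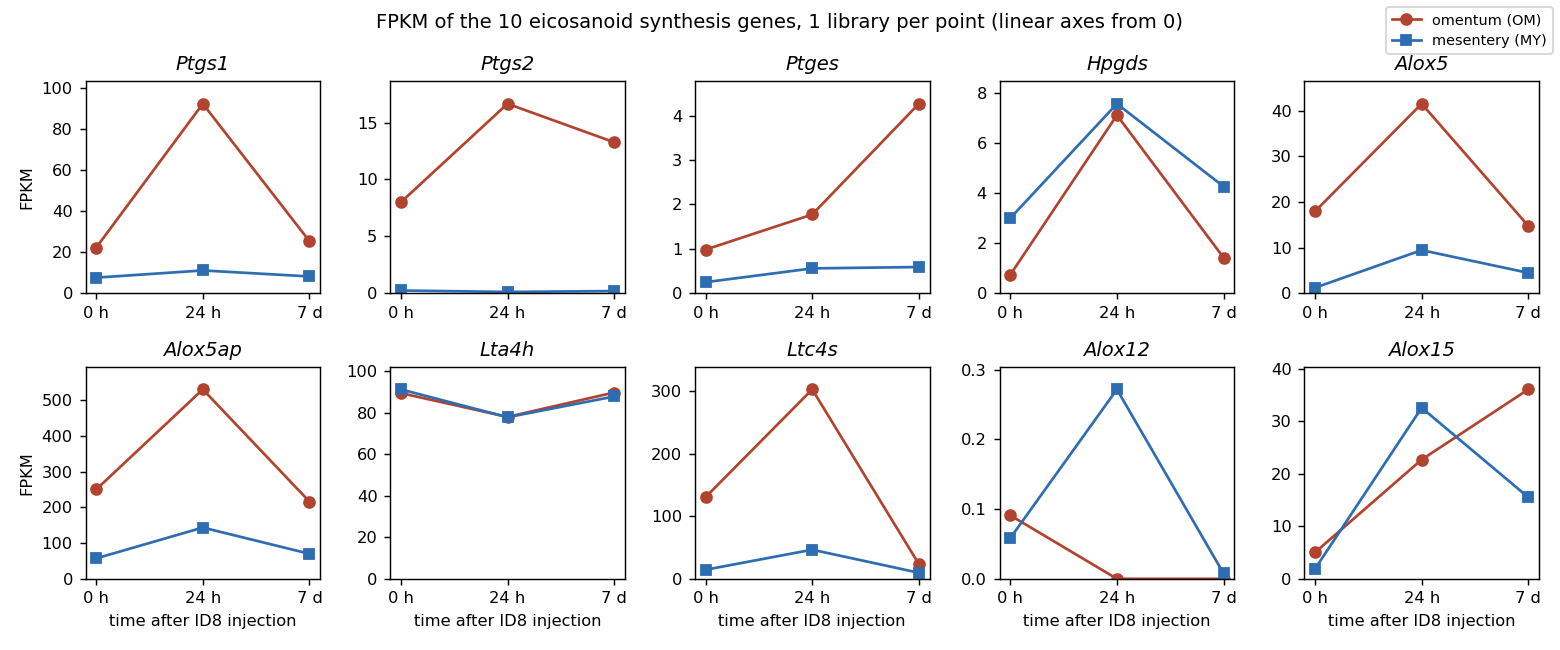
FPKM of the 10 genes (vertical axes, linear from 0, each with its own scale) at 0 h, 24 h and 7 d after ID8 injection in omental (red circles) and mesenteric (blue squares) macrophages, 1 library per point. Ptgs2 stays at or below 0.233 in the mesenteric libraries and lies between 7.998 and 16.7 in the omental ones, while Lta4h lies between 77.8 and 91.2 throughout.

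Before injection, 6 members were at least 2-fold higher and 1 was lower in naive omental than in naive mesenteric cells, where 8.18% of expressed genes were higher and 8.05% lower. At 24 h, 5 members were higher and 0 lower in OM than in MY, against 13.9% and 10.2% of expressed genes. Relative to the mean of the 8 macrophage markers, which was 1.41 higher in OM 24h, the same comparison had 3 members higher and 4 lower. That subtraction lowers every gene by 1.41, and the share of all expressed genes past 2-fold after it was not computed. These 2 counts therefore have no background and are no result about the members. At 7 d, 7 members were higher and 1 lower, against 14.1% and 4.99%. The median difference of the 9 expressed members was 1.44, 1.88 and 1.53 on the log2 scale at 0 h, 24 h and 7 d, and that of all expressed genes was 0.01, 0.00 and -0.01. Over time in the omentum, 6 members were higher and 0 lower at 24 h than at 0 h, where 11.9% of expressed genes were higher and 6.45% lower. At 7 d, 2 members were higher and 1 lower than in OM 0h, against 11% and 1.96% of expressed genes. In the mesentery, 5 members were higher and 0 lower at 24 h, against 2.8% and 1.52% of expressed genes, and 2 were higher and 0 lower at 7 d, against 0.498% and 2.29%. Comparisons with OM 0h share that library, and those with MY 0h share that one.

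**Figure D2:**
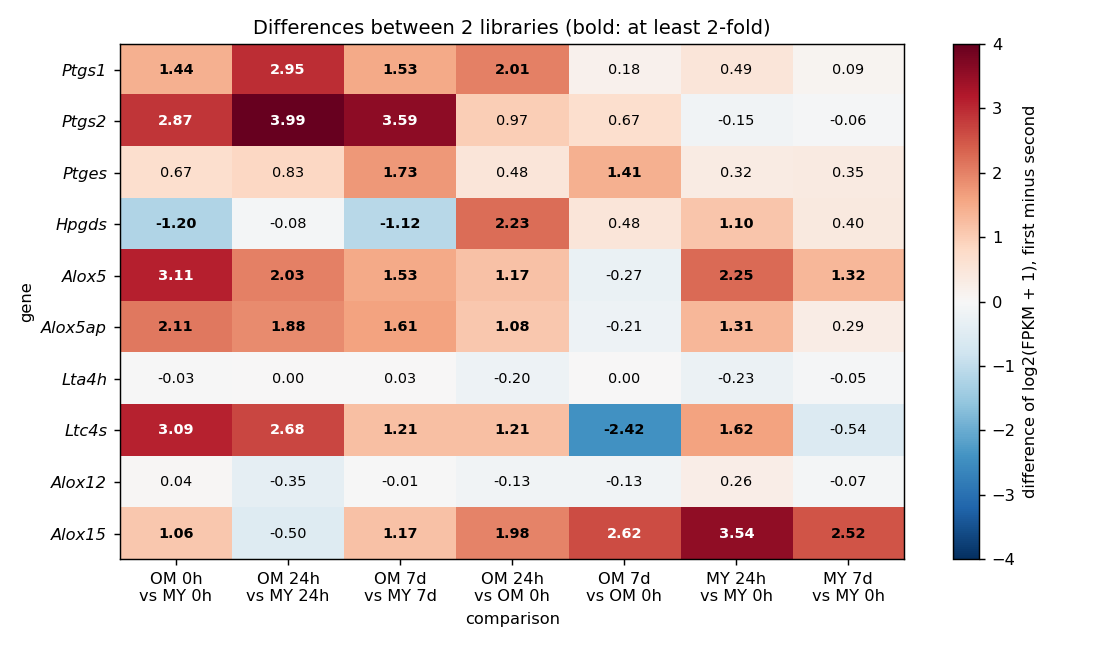
Difference of log2(FPKM + 1) between the libraries named under each column, first minus second, for the 10 genes (rows), with red above 0, blue below 0 and values of at least 1 in size in bold. The tissue contrasts reach 3.99 for Ptgs2 at 24 h, and the lowest value is -2.42, for Ltc4s in OM 7d against OM 0h.

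Both cyclooxygenases were higher in omental macrophages, the inducible one by far more. Ptgs2, the inducible cyclooxygenase (chr1:151947254-151955140, plus strand, 10 exons, NCBIM37), had an FPKM of 7.998, 16.7 and 13.3 in the omental libraries, and of 0.233, 0.108 and 0.184 in the mesenteric libraries. The tissue difference was 2.87 at 0 h, 3.99 at 24 h and 3.59 at 7 d on the log2 scale, all past 2-fold. In the omentum Ptgs2 was 0.97 higher at 24 h than at 0 h, just short of 2-fold on this scale, and 0.67 higher at 7 d. The FPKM ratio of OM 24h to OM 0h was 2.08, and the difference was 1.05 with a pseudocount of 0.1. In the mesentery it was -0.15 and -0.06 from its value at 0 h, at levels below 1 FPKM.

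Ptgs2 is also known as an immediate early gene, and the 7 genes induced by dissociation differed in the same direction between the tissues at every time. Their mean difference was 3.70 at 0 h, 4.17 at 24 h and 4.26 at 7 d on the log2 scale. Fos, the best known of them, had FPKM values of 729.8, 1715 and 1129 in the omental libraries and of 8.17, 9.52 and 6.37 in the mesenteric ones. The 6 mesothelial markers were likewise higher in the omental library at each time, with Upk3b at 23.7, 214.6 and 259.4 FPKM in omental libraries and no more than 0.0682 in mesenteric ones. The part of either in the Ptgs2 difference was not tested.

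Ptgs1, the constitutive cyclooxygenase (chr2:36085946-36107792, plus strand, 11 exons), had an FPKM of 22.1, 92.1 and 25.3 in the omental libraries. In the mesentery it was 7.55, 11.04 and 8.13. The omental value at 24 h stood alone, 2.01 above OM 0h on the log2 scale, whereas OM 7d was 0.18 above OM 0h. Mesenteric values stayed within 0.49 of MY 0h. The tissue difference was 1.44 at 0 h, 2.95 at 24 h and 1.53 at 7 d, so that Ptgs1 was past 2-fold at each. The macrophage markers were also higher in OM 24h, by 1.57 in the mean over OM 0h, and the neutrophil markers by 1.28, and their part was not tested.

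Within every library Ptgs1 exceeded Ptgs2. The ratio of Ptgs2 to Ptgs1 FPKM was 0.361, 0.181 and 0.525 in the omental libraries, against 0.0309, 0.00978 and 0.0227 in the mesenteric libraries. The ratio is taken inside a library and does not depend on the scaling between libraries.

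**Figure D3:**
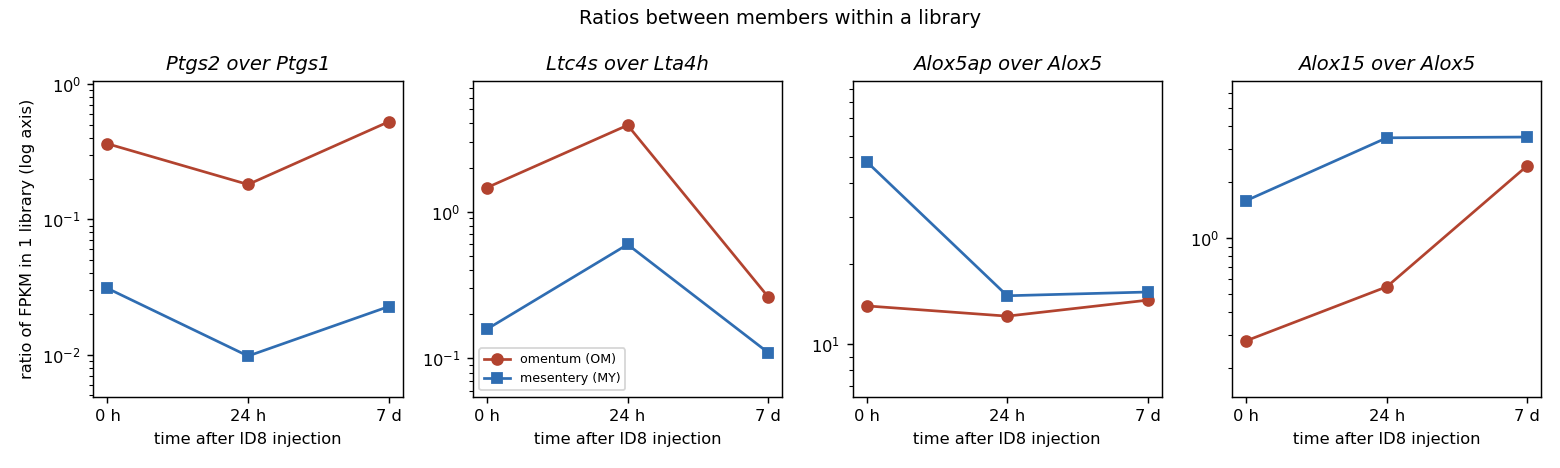
Ratio of the FPKM of one member to that of another within each library (vertical log axes) at 0 h, 24 h and 7 d, for omental (red circles) and mesenteric (blue squares) libraries, 1 library per point. All omental Ptgs2 to Ptgs1 ratios lie above the mesenteric ones, and the Ltc4s to Lta4h ratio is highest at 24 h in both tissues, at 3.89 and 0.598.

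The prostaglandin synthases differed in side. Ptges, the inducible microsomal prostaglandin E synthase (chr2:30744991-30785383, minus strand, 3 exons), was low, with 0.981, 1.77 and 4.27 FPKM in the omental libraries and 0.247, 0.558 and 0.589 in the mesenteric libraries. Its tissue difference passed 2-fold at 7 d alone (1.73), with 0.67 at 0 h and 0.83 at 24 h, and OM 7d was 1.41 above OM 0h. These calls depend on the pseudocount: with 0.1 the tissue difference was 1.64 at 0 h and 1.51 at 24 h, and with 5 it was 0.73 at 7 d and OM 7d was 0.63 above OM 0h. The mesothelial list, with a mean that was 3.12 higher in OM 7d than in OM 0h, and the fibroblast list, 1.14 higher, moved in the same direction, and their part was not tested.

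Hpgds, the hematopoietic prostaglandin D synthase (chr6:65067287-65094902, minus strand, 6 exons), was the one member lower in the omentum. It had 0.734, 7.12 and 1.42 FPKM in the omental libraries and 3.00, 7.57 and 4.26 in the mesenteric ones. The difference was -1.20 at 0 h and -1.12 at 7 d, both past 2-fold, and -0.08 at 24 h. With a pseudocount of 5 neither was past 2-fold (-0.48 and -0.53). Both tissues were highest at 24 h, by 2.23 over OM 0h and by 1.10 over MY 0h. Hpgds is known from mast cells as well as macrophages. Of the 7 expressed mast cell markers, 5 were at least 2-fold lower and 0 higher in the omentum at 24 h than at 0 h, with Cpa3 listed at 0. In the mesentery 2 were higher and 0 lower at 24 h, and 4 were higher and 0 lower at 7 d. In the omentum 0 were higher and 0 lower at 7 d. Between the tissues, 5 were higher and 0 lower in the omentum at 0 h, 1 and 4 at 24 h, and 1 and 0 at 7 d. The part of mast cells in the Hpgds levels was not tested.

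The 5-lipoxygenase pair had higher levels in the omentum at every time and a peak at 24 h in both tissues. Alox5, the 5-lipoxygenase itself (chr6:116360095-116411196, minus strand, 14 exons), had 17.9, 41.5 and 14.8 FPKM in the omental libraries and 1.19, 9.43 and 4.45 in the mesenteric libraries. The tissue difference was 3.11 at 0 h, 2.03 at 24 h and 1.53 at 7 d. It narrowed as the mesenteric level was 2.25 higher at 24 h and 1.32 higher at 7 d than at 0 h, whereas the omental level was 1.17 higher at 24 h and -0.27 from its start at 7 d.

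Alox5ap, which encodes FLAP (chr5:150076634-150099621, plus strand, 5 exons), was the most abundant member in the 3 omental libraries and in MY 24h. It had 249.7, 529.6 and 215.8 FPKM in the omental libraries, and 57.03, 143.3 and 69.9 in the mesenteric libraries. These values lay at or above the 96.9th percentile of expressed genes in each omental library and at the 87.0th to 95.2nd percentile in the mesenteric ones. Tissue differences were 2.11, 1.88 and 1.61 at 0 h, 24 h and 7 d, and OM 24h and MY 24h exceeded their 0 h libraries by 1.08 and 1.31. The ratio of Alox5ap to Alox5 was between 12.7 and 15.7 in 5 libraries and 48.1 in MY 0h, where Alox5 was lowest.

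Alox5 and Alox5ap are known to be strongly expressed by neutrophils. All 7 neutrophil markers in the table were higher in OM 24h than in MY 24h and 6 of 7 were higher in the omentum at 0 h and at 7 d. In the omentum all 7 were higher at 24 h than at 0 h. In OM 7d, 4 of the 7 were higher than in OM 0h and 0 lower, and Alox5 and Alox5ap were -0.27 and -0.21 from their start. In the mesentery 2 of the 7 were higher and 2 lower at 24 h than at 0 h, and 1 was higher and 4 lower at 7 d. S100a8 was at 287.9, 218.7 and 32.1 FPKM in the mesenteric libraries, and Retnlg, also a neutrophil gene, was at 40.5, 263.1 and 163.1. The part of neutrophil RNA in the levels of the pair was not tested.

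The leukotriene enzymes downstream of leukotriene A4 differed in how much they varied across the libraries. Lta4h, the hydrolase that yields leukotriene B4 (chr10:92916141-92947641, plus strand, 19 exons), was even across the libraries, with 89.4, 77.9 and 89.7 FPKM in the omental libraries and 91.2, 77.8 and 87.8 in the mesenteric libraries. Its whole range was 0.23 on the log2 scale, and it was the most abundant member in MY 0h and MY 7d.

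Ltc4s, the leukotriene C4 synthase (chr11:50049971-50052118, minus strand, 5 exons), spanned 4.84 on the same scale, the widest range of the 10. It had 130.5, 302.7 and 23.5 FPKM in the omental libraries, against 14.4, 46.5 and 9.61 in the mesenteric libraries. The omentum was higher by 3.09, 2.68 and 1.21 at 0 h, 24 h and 7 d. OM 24h was 1.21 above and OM 7d 2.42 below OM 0h, so Ltc4s was the one member at least 2-fold below its 0 h library. MY 24h was 1.62 above MY 0h and MY 7d was -0.54 from it.

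The ratio of Ltc4s to Lta4h was 1.46, 3.89 and 0.263 in the omental libraries, and 0.158, 0.598 and 0.1095 in the mesenteric libraries. The synthase transcript thus exceeded that of the hydrolase in OM 0h and OM 24h and was below it in the other 4 libraries. Between OM 0h and OM 7d, while Ltc4s was 2.42 lower, the mean of the macrophage markers was -0.22 from its start. Of the 6 markers of large peritoneal macrophages, 3 (Timd4, Cd5l and Prg4) were at least 2-fold lower in OM 7d than in OM 0h and 1 (Gata6) was higher. Timd4 had 27.8, 13.5 and 5.304 FPKM in the omental libraries and 23.5, 38.8 and 27.3 in the mesenteric ones. Cd5l had 5.97, 16.5 and 1.403 FPKM in the omental libraries and 29.8, 103.3 and 47.7 in the mesenteric ones. Gata6 had 2.06, 15.9 and 36.7 FPKM in the omental libraries and no more than 0.298 in the mesenteric ones. The part of such cells in the Ltc4s levels was not tested. One limit of the Ltc4s values is that in the GENCODE annotation a noncoding gene on the opposite strand, Gm16641, overlaps it over 1608 bases including exon sequence. Whether reads were assigned by strand is not given in the sources used here, so reads of the pair cannot be told apart, and Gm16641 has no value of its own here.

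Alox12 and Alox15 lie 88798 bases apart on the minus strand of chromosome 11, with Alox12e between them, and behaved differently. Alox12, the platelet-type 12-lipoxygenase (chr11:70054959-70068855, 14 exons), did not reach an FPKM of 1 in any library. It was 0.0910 in OM 0h and listed at 0 in OM 24h and OM 7d, and it was 0.0584, 0.272 and 0.00767 in the mesenteric libraries. Of the 7 platelet and megakaryocyte markers, Gp9, Gp1ba, Gp6, Treml1 and Ppbp were below 1 FPKM in all libraries too, while Pf4, which macrophages also express, reached 601.1 in OM 24h.

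Alox15, the 12/15-lipoxygenase (chr11:70157654-70165533, 14 exons), had the largest difference from 0 h of the 10. It had 5.03, 22.7 and 36.1 FPKM in the omental libraries and 1.88, 32.6 and 15.5 in the mesenteric libraries. In the omentum it was 1.98 above its start at 24 h and 2.62 at 7 d, and in the mesentery 3.54 and 2.52. The omentum was higher by 1.06 at 0 h and by 1.17 at 7 d, and the difference was -0.50 at 24 h. Its highest level was thus at 7 d in the omentum and at 24 h in the mesentery. The ratio of Alox15 to Alox5 was 0.280, 0.547 and 2.45 in the omental libraries and 1.59, 3.46 and 3.49 in the mesenteric ones.

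Markers of cells known to express Alox15 did not share a single course. Of the 6 markers of large peritoneal macrophages, 3 were higher and 0 lower in the omentum at 24 h than at its start, and 1 was higher and 3 lower in OM 7d. In the mesentery 2 were higher at 24 h and 0 at 7 d, with 0 lower. The higher one in OM 7d was Gata6, the transcription factor of these cells, and Timd4, Cd5l and Prg4 were the lower ones. Gata6 was 2.06, 15.9 and 36.7 FPKM in the omental libraries and no more than 0.298 in the mesenteric libraries, and Wt1, a mesothelial gene, was 2.16, 25.2 and 38.1 in the same libraries. Of the 4 expressed eosinophil markers, 2 were higher and 0 lower in OM 7d, in MY 24h and in MY 7d than at 0 h, and 1 was higher and 1 lower in OM 24h. Ccr3, the eotaxin receptor, was 0.172, 0.0934 and 8.86 in the omental and 0.371, 10.4 and 4.54 in the mesenteric libraries. Siglec5 was 0.639, 2.47 and 5.68 in the omental and 0.523, 6.32 and 2.19 in the mesenteric libraries. Il5ra was 23.2, 5.34 and 15.05 in the omental and 1.26, 1.87 and 2.49 in the mesenteric libraries. Prg2 was 2.72, 0.931 and 6.03 in the omental and 7.32, 3.94 and 7.36 in the mesenteric libraries. Epx, a granule protein that defines eosinophils, was listed at 0 in 5 libraries and at 0.0303 in MY 7d. The part of other cell types in the Alox15 levels was not tested.

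The changes at 24 h ran beside a change in the macrophage markers themselves. In OM 24h, 6 of the 8 macrophage markers were at least 2-fold higher than in OM 0h, and their mean was 1.57 higher, whereas MY 24h was 0.78 above MY 0h. Set against that mean, the omental difference at 24 h was 0.44 for Ptgs1, 0.66 for Hpgds, -0.40 for Alox5, -0.49 for Alox5ap, -0.36 for Ltc4s and 0.41 for Alox15, none of them past 2-fold, and Ptges (-1.08), Lta4h (-1.76) and Alox12 (-1.69) were lower. In the mesentery, Alox15 (2.77) and Alox5 (1.48) remained past 2-fold relative to the markers, while Hpgds (0.32), Alox5ap (0.54) and Ltc4s (0.84) did not, and Lta4h was -1.003. For OM 7d against OM 0h the same reckoning left Ltc4s at -2.20, Ptges at 1.63 and Alox15 at 2.84. Of the tissue differences, those of Ptgs2 remained past 2-fold at all times (2.25, 2.58 and 3.41), as did those of Ltc4s (2.47, 1.26 and 1.03), while Alox5 (0.61) and Alox5ap (0.47) did not at 24 h, Ptgs1 (0.82) did not at 0 h, and Alox15 did not at 0 h (0.44) or 7 d (0.98). On this reckoning Hpgds (-1.49), Lta4h (-1.41), Alox15 (-1.92) and Alox12 (-1.76, at levels below 1 FPKM) were at least 2-fold lower in the omentum than in the mesentery at 24 h. The subtraction lowers every gene by the same amount, so Lta4h, at 0.00 as measured, was counted as lower there. The share of all expressed genes past 2-fold on this reckoning was not computed.

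**Figure D4:**
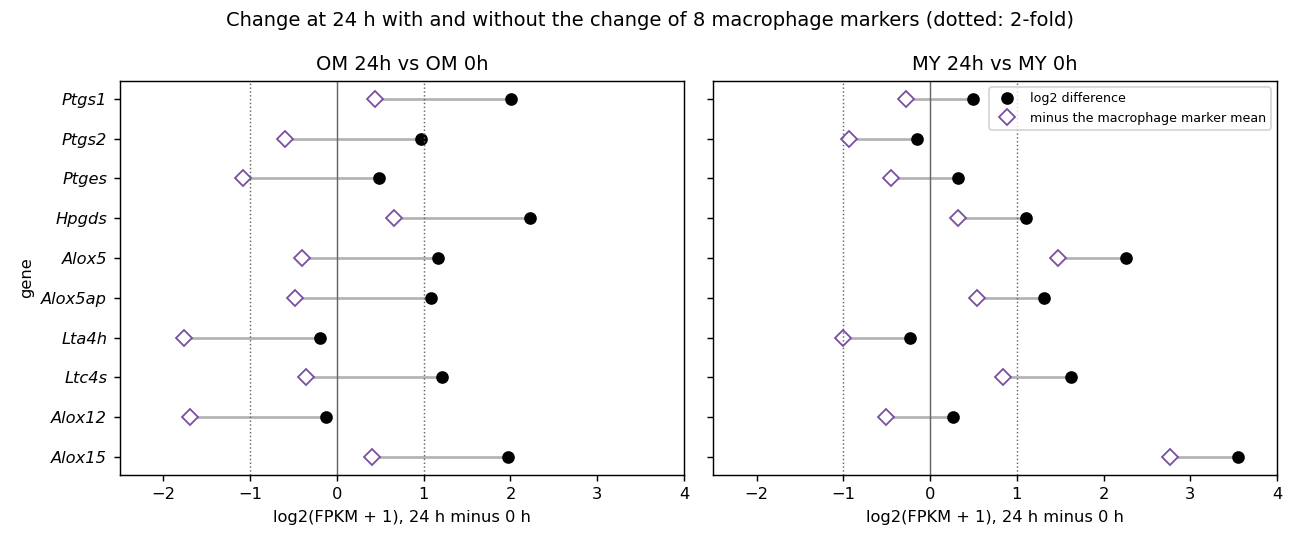
Difference of log2(FPKM + 1) between the 24 h and the 0 h library (horizontal axis) for each of the 10 genes in the omentum (left) and mesentery (right), as measured (black circles) and after the mean difference of 8 macrophage markers was subtracted (open diamonds), with dotted lines at 2-fold. In the omentum the subtraction is 1.57 and leaves no member at or above the upper 2-fold line.

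Other genes of the pathway were counted from lists of receptors, further synthases, inactivating enzymes and exporters, phospholipases and other lipoxygenases. Of 49 genes, 36 were expressed. At 0 h, 11 were at least 2-fold higher and 8 lower in the omentum, at 24 h 13 and 6, and at 7 d 12 and 6, where the shares of all expressed genes were 8.18% and 8.05%, 13.9% and 10.2%, and 14.1% and 4.99%. Within the omentum, 15 were higher and 1 lower at 24 h than at 0 h, and 6 were higher and 1 lower at 7 d, against 11.9% and 6.45%, and 11% and 1.96%, of all expressed genes. Within the mesentery, 7 were higher and 2 lower at 24 h, and 1 was higher and 1 lower at 7 d, against 2.8% and 1.52%, and 0.498% and 2.29%. Every omental library lay above every mesenteric one for 10 of the 36 and below for 8, against 16.7% and 17.7% of all expressed genes.

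Receptors for leukotrienes and lipoxins were mostly higher in the omentum, as were the neutrophil markers, with 6, 7 and 6 of 7 higher at 0 h, 24 h and 7 d. Neutrophils are known to express several of these receptors, and their part was not tested. Of the 5 expressed receptors in the list, 4 were higher at each time, and 1, Cysltr2, was lower at 0 h and at 24 h. The formyl peptide receptor Fpr1 was on the list and was 1 of the 4. The shares of all expressed genes higher and lower were 8.18% and 8.05%, 13.9% and 10.2%, and 14.1% and 4.99%. Ltb4r1, the high-affinity receptor of leukotriene B4, had 72.5, 108.4 and 54.8 FPKM in the omental libraries and 5.196, 18.0 and 9.82 in the mesenteric libraries. Cysltr1, a receptor of cysteinyl leukotrienes, had 8.14, 22.0 and 7.02 FPKM in the omental and 2.03, 3.24 and 2.35 in the mesenteric libraries. Of the formyl peptide receptors, Fpr2, which also binds lipoxin A4, reached 28.0 FPKM and Fpr1 51.4, both in OM 24h, against mesenteric maxima of 4.61 and 4.09.

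Prostanoid receptors were more even. Of 6 expressed, 2 were higher and 1 lower in the omentum at 0 h, and 1 was higher and 1 lower at 24 h and at 7 d. The shares of all expressed genes were 8.18% and 8.05% at 0 h, 13.9% and 10.2% at 24 h, and 14.1% and 4.99% at 7 d. Ptger4, a prostaglandin E2 receptor, lay between 22.4 and 44.8 FPKM in all libraries without passing 2-fold in any comparison. Tbxa2r, the thromboxane receptor, was the lower one, with 10.3, 4.39 and 14.1 FPKM in omental and 22.5, 18.45 and 40.4 in mesenteric libraries.

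Among 8 further prostanoid synthases, 2 were higher and 1 lower in the omentum at 0 h, 3 and 1 at 24 h, and 2 and 1 at 7 d. The shares of all expressed genes were 8.18% and 8.05%, 13.9% and 10.2%, and 14.1% and 4.99%. Fam213b was the lower one at 0 h and 7 d, with 23.8, 89.5 and 20.4 FPKM in omental and 77.1, 113.0 and 51.1 in mesenteric libraries. At 24 h it was Cbr1, at 23.7 FPKM in OM and 50.3 in MY. Ptgis, the prostacyclin synthase, had 11.02, 52.4 and 93.3 FPKM in the omental libraries and 2.38, 6.35 and 4.07 in the mesenteric libraries. Tbxas1, the thromboxane synthase, had 40.1, 123.2 and 23.2 FPKM in omental and 13.2, 36.3 and 19.9 in mesenteric libraries, with its peak at 24 h in both. Ptgds, the lipocalin-type prostaglandin D synthase, was listed at 0 in OM 0h and reached 15.3 FPKM in OM 7d, against 0.446 in MY 7d. Mesothelial markers summed to 69.8, 741 and 782 FPKM and fibroblast markers to 323, 204 and 1115 in the same omental libraries, and their part in the levels of Ptgis and Ptgds was not tested. The constitutive prostaglandin E synthase partner Ptges3 lay between 36.3 and 69.3 FPKM, far above Ptges.

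Genes listed for the processing, inactivation and export of eicosanoids pointed both ways. The list holds the transporters Slco2a1, Abcc4 and Abcc1 beside enzymes. Of 11 expressed, 3 were higher and 2 lower in the omentum at 0 h, 4 and 1 at 24 h, and 5 and 2 at 7 d. The shares of all expressed genes were 8.18% and 8.05%, 13.9% and 10.2%, and 14.1% and 4.99%. Hpgd, which inactivates prostaglandins, was lower in the omentum throughout, with 20.9, 51.9 and 10.3 FPKM against 92.4, 166.2 and 80.2 in the mesentery. Dpep2, a dipeptidase that trims leukotriene D4, had 15.5, 56.4 and 9.36 FPKM in omental and 1.79, 9.26 and 1.66 in mesenteric libraries. Cyp4f18, a leukotriene B4 hydroxylase, had 275.4, 323.0 and 268.3 FPKM in omental and 45.9, 112.5 and 100.2 in mesenteric libraries. None of the other 4 lipoxygenases in the list, Alox8, Alox12b, Alox12e and Aloxe3, reached an FPKM of 1.

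**Figure D5:**
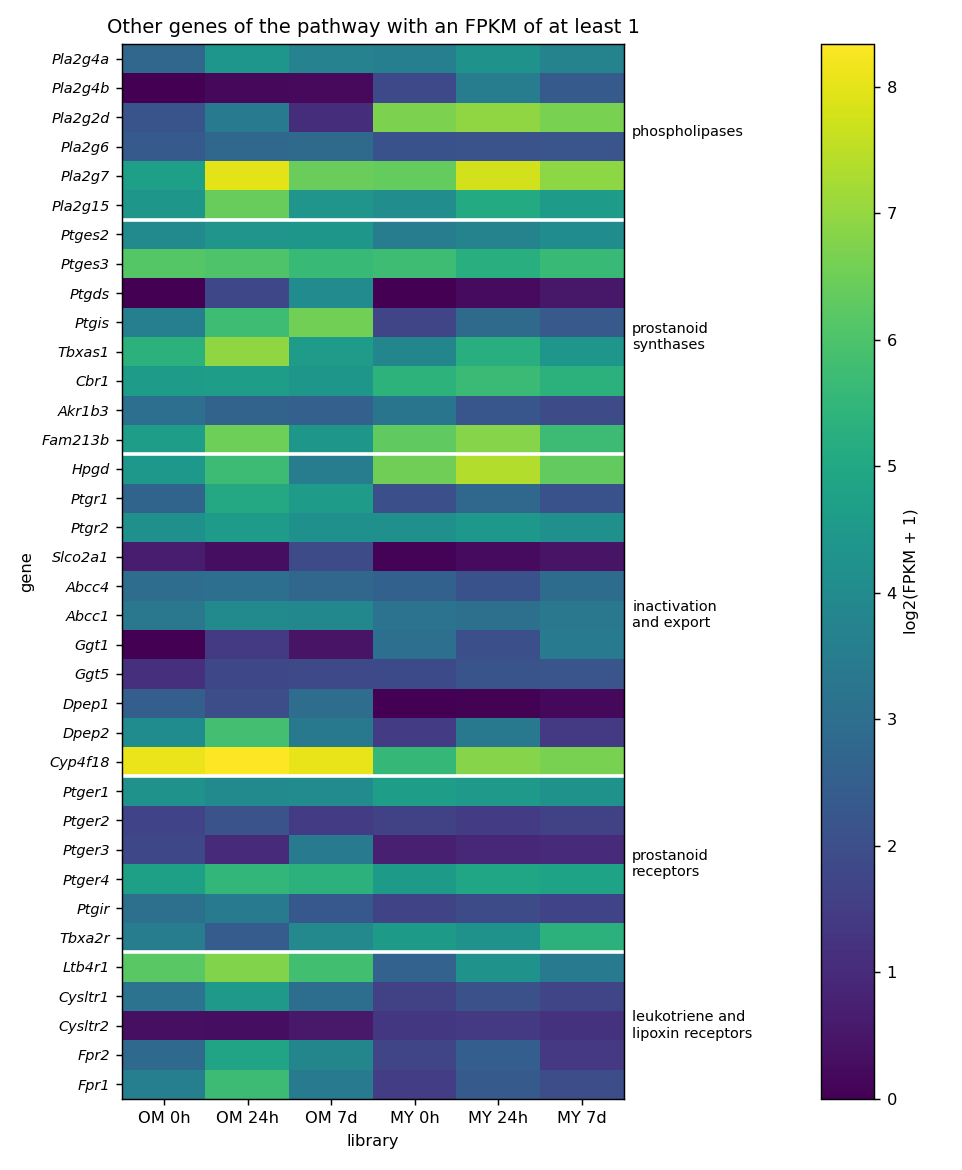
Level on the log2(FPKM + 1) scale (colour) of the 36 expressed genes of the pathway lists (rows, grouped by role) in the 6 libraries (columns). Ltb4r1, Dpep2 and Cyp4f18 are brighter in the 3 omental columns, and Hpgd and Pla2g2d are brighter in the 3 mesenteric ones.

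The genes whose course over the 6 libraries was nearest to each member were taken as those with the lowest root mean square difference of centred log2(FPKM + 1) among 7991 non-members that reached 10 FPKM. For Ptgs1 the nearest was Lyz2 (0.14), the lysozyme on the macrophage list, followed by Slc16a3 (0.17) and Bst1 (0.18). For Ptgs2 they were Plk2, Tinagl1 and C1qtnf1 (0.18, 0.19 and 0.19). Alox5 was nearest to Retnlg (0.28), a gene of the neutrophil list, then to Ptplad2 (0.36) and Pid1 (0.39). Alox5ap was nearest to Lrp1 (0.20), Ptplad2 (0.20) and Padi4 (0.22), so Ptplad2 was shared by the 5-lipoxygenase pair.

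Ltc4s was nearest to Folr2 (0.21), a marker of resident macrophages, whose FPKM was 81.6, 220.0 and 14.5 in the omental libraries and 9.86, 25.7 and 8.45 in the mesenteric libraries. Clps (0.41) and Dpep2 (0.53), the dipeptidase downstream of the same branch, followed. Alox15 had no close match, with Mpeg1 nearest at 0.55, then Rab34 (0.70) and Ctsf (0.75). With 6 libraries in all, these likenesses are a description, and libraries of a tissue share their dissociation and gate.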

How the data were processed

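RNA of sorted macrophages was measured in 6 libraries, 1 for each tissue and time. Per the study's methods and labels, reads were checked with FastQC 0.11.4 and aligned with STAR 2.4.2a to mm9, guided by UCSC gene models, and the authors deposited FPKM per gene symbol, made with Cufflinks, in 1 table. All 6 columns were used. FPKM hold no read counts, so no count model was run, no interval was computed and depth is known only roughly.

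Differences were computed on log2(FPKM + 1) with Python 3.11.15, numpy 2.4.6 and pandas 2.3.3, and figures were drawn with matplotlib 3.10.9. With 1 library per condition there was no test. Groups came from the sample titles. The 10 genes were taken by symbol, and these members, the 6 pathway lists and the 13 marker lists were chosen with earlier results of these data known. All members were named, as were list genes past 2-fold with at least 10 FPKM in 1 of 2 libraries compared (the text gives examples of these) and the 3 genes most like each member that reached 10 FPKM and varied 2-fold. Other genes that the text names, from the marker or pathway lists, were picked with their values in view. Ly6g and Trac had no row. Positions are from NCBIM37 and GENCODE M1, which is not the annotation the authors used, and promoters from RefSeq on GRCm38.p6, without conversion between builds. Promoter windows matched 8 of the 10 members. Alternatives were pseudocounts of 0.1 and 5, other filters, and 2 rescalings.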

Additional observations from a re-analysis of the deposited data

Results flagged for a closer look

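The members were compared for changes of opposite direction in the 2 tissues, each of at least 0.1 on the log2(FPKM + 1) scale, with 1 library behind each value. Ptgs2 at 24 h was 0.97 above its 0 h library in the omentum and -0.15 from it in the mesentery, a difference between tissues of 1.13. Alox5 at 7 d was -0.27 in the omentum and 1.32 in the mesentery, a difference of -1.58. Alox5ap at 7 d was -0.21 and 0.29, a difference of -0.50, and for both genes the tissue difference was smaller at 7 d than at 0 h. These differences were not tested, since no condition had a second library, and the mesenteric Ptgs2 values lie below 1 FPKM.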

How the results depend on the processing

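No paired analysis was possible because no condition has a second replicate, and the 3 time points are separate conditions rather than repeats. Over the 7 comparisons and the 10 members, 248 of 280 log2 differences recomputed under the planned settings moved by no more than 0.58, the log2 of 1.5-fold, 32 moved further and 0 of those past 2-fold changed sign. With a pseudocount of 5, the members past 2-fold numbered 5 rather than 8 for OM 7d against MY 7d and 1 rather than 2 for MY 7d against MY 0h. The tissue calls of Hpgds and Alox15 (0.54) at 0 h and of Hpgds, Ptges and Ltc4s (0.97) at 7 d were lost. Also lost were Alox5 in MY 7d against MY 0h (0.61), Hpgds in MY 24h against MY 0h (0.65) and Ptges in OM 7d against OM 0h (0.63). The Alox15 tissue call at 0 h was also lost on rescaling to a sum of 1000000 (0.99). Ptgs2 at 0 h ranged from 1.31 (pseudocount 5) to 4.60 (pseudocount 0.1) around 2.87. Rescaling to a sum of 1000000 moved the median of all expressed genes to as low as -0.27 (OM 24h against MY 24h, from 0.00) and left 4 of the 6 members called in OM 24h against OM 0h. With a pseudocount of 0.1, or after rescaling by the median ratio, 7 members were called there. The added one was Ptgs2, at 1.05 and 1.003. Members separated between tissues, in either direction, numbered 5 under both rescalings, 6 without both libraries of 0 h or of 7 d, and 7 without those of 24 h. The member added without 0 h was Alox12, which was lower in the omentum and below 1 FPKM. Without 7 d it was Ltc4s, which was higher. Without 24 h they were Ltc4s, again higher, and Hpgds, which was lower. Fewer libraries separate more easily, and the share of all expressed genes separated was not computed for these settings.

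Relative to the 8 macrophage markers, a reference chosen after seeing the data, 3 members rather than 6 were past 2-fold in OM 24h against OM 0h, all of them lower, and 3 rather than 5 in MY 24h against MY 0h, and the 5 higher and 0 lower of OM 24h against MY 24h became 3 and 4. There Alox5, Alox5ap and Ltc4s changed sign in OM 24h against OM 0h, at -0.40, -0.49 and -0.36. The subtraction lowers every gene of a comparison by the same amount, so Lta4h, at -0.20 as measured in OM 24h against OM 0h, became -1.76. The share of all expressed genes past 2-fold after the subtraction was not computed, so these counts have no background. It also moves genes near 0 FPKM such as Alox12, for which it has no meaning. Restricting the background to genes with at least 1 FPKM in every library lowered the share past 2-fold to 10.3% for OM 7d against MY 7d and to 6.34% for OM 7d against OM 0h. Values below 1 FPKM (Ptgs2 in the mesentery, Ptges, Alox12) rest on few reads, whose number is not in the table.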

Other observations

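The listed phospholipases were more often lower than higher in the omental libraries. Of 6 expressed, 0 were at least 2-fold higher and 3 lower in naive omental than in naive mesenteric cells. At 24 h 1 was higher and 2 lower, and at 7 d 0 were higher and 2 lower. The shares of all expressed genes were 8.18% and 8.05%, 13.9% and 10.2%, and 14.1% and 4.99%. The lower ones were Pla2g2d and Pla2g4b at each time and Pla2g7 at 0 h. Pla2g4b was low in the omental libraries, at 0.000432, 0.128 and 0.164 FPKM, against 2.56, 10.4 and 4.18 in the mesenteric ones. Pla2g2d, a secreted phospholipase, had 3.44, 10.2 and 1.15 FPKM in the omental libraries at 0 h, 24 h and 7 d and 102.6, 122.5 and 100.7 in the mesenteric libraries. Pla2g4a, the cytosolic phospholipase that releases arachidonic acid, lay closer, with 5.74, 19.9 and 11.9 FPKM in omental and 11.2, 18.2 and 12.3 in mesenteric libraries. Pla2g7, the platelet-activating factor acetylhydrolase, was 25.4, 253.4 and 85.3 FPKM in omental and 82.4, 215.7 and 120.7 in mesenteric libraries, and so was highest at 24 h in both tissues. Pla2g15, a lysosomal phospholipase, reached 83.25 FPKM in OM 24h from 20.2 in OM 0h, and 33.0 in MY 24h from 16.0 in MY 0h.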
